A study of Mus musculus with 12 samples.

Results

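Long intergenic noncoding RNAs (lincRNAs) are transcripts of genes that lie between protein-coding genes and hold no known protein code. The deposited table of read counts labels 1381 of its 24207 genes as lincRNA. Of these, 224 were taken as expressed, because their mean level was 1 count per 1000000 counts of the library (CPM) or more in at least 1 of 4 groups. Imprinted transcripts with the same label, 3 in number, were left out, and 1154 lincRNA genes stayed under the threshold. The members were thus chosen by their measured level. In all, 13835 genes passed the same threshold, 13215 of them protein-coding.

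RNA came from mouse embryonic fibroblasts of strain C57BL/6 that carried the lentiviral constructs FUW-OSKM and FUW-M2rtTA. With doxycycline these express Oct4, Sox2, Klf4 and Myc (OSKM), the factors that can turn fibroblasts into pluripotent stem cells. The 12 libraries formed 4 groups of 3, all with short hairpin RNAs and all taken at day 7. The uninduced cells carried both constructs and a scrambled hairpin and received no doxycycline. The induced controls received doxycycline and the scrambled hairpin, the Trim28 knockdown doxycycline and a hairpin against Trim28, and the double knockdown doxycycline and hairpins against Trim28 and Setdb1. Cells grew in embryonic stem cell medium on irradiated feeder fibroblasts, and the labels do not say that feeders were removed. The labels also do not say that the 3 replicates were separate cultures, so the p-values below measure only how far these samples spread, and that spread may be technical.

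Many lincRNAs stay in the nucleus, where some build nuclear bodies or coat chromatin. Others serve as hosts of small RNAs, and many are made in few cell types and at low levels. Trim28 represses genes to which zinc finger proteins recruit it, and its partner Setdb1 methylates lysine 9 of histone H3. In mouse embryonic stem cells both are known for silencing retroviral elements, and these cells make a set of lincRNAs that fibroblasts lack.

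The start regions of 4 members stand for the kinds of locus described below. Miat is an abundant RNA that rose with the factors, Lincenc1 a stem cell lincRNA, 2410088K16Rik a lincRNA nearly silent without Trim28 knockdown, and 4930461G14Rik a lincRNA that rose with the factors and fell in both knockdowns. Each sequence is the RefSeq window from 250 bases before to 50 bases after an annotated start in build GRCm38.p6, read 5′ to 3′ on the strand of the gene. The windows are chr5:112228899-112229198 on the minus strand for Miat, chr13:97434720-97435019 on the plus strand for Lincenc1, chr1:88754640-88754939 on the plus strand for 2410088K16Rik and chr9:58454923-58455222 on the plus strand for 4930461G14Rik. Capitals mark a match to a motif.
Miat: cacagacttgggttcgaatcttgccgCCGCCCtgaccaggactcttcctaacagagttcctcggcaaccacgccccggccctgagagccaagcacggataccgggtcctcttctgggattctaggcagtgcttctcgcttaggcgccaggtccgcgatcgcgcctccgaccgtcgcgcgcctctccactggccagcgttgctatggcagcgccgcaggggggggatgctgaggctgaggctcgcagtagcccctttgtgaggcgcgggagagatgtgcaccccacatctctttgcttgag
Lincenc1: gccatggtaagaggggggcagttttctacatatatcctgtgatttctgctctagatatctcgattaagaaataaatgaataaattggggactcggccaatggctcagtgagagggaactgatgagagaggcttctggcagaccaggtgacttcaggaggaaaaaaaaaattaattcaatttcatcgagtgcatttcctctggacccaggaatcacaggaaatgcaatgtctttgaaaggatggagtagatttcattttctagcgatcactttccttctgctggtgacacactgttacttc
2410088K16Rik: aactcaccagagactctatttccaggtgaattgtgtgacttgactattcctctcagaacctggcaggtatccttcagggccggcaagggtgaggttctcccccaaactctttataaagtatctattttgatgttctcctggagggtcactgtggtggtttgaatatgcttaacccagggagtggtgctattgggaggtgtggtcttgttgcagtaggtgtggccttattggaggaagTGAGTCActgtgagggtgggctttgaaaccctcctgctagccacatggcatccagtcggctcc
4930461G14Rik: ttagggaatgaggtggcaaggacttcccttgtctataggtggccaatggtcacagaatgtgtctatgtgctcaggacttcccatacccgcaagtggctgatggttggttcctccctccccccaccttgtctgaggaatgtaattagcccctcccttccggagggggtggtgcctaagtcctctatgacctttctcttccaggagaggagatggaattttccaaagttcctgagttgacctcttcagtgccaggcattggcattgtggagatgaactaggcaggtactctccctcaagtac
The capitals in Miat are a GC box (CCGCCC on either strand), a motif of Klf and Sp factors, and those in 2410088K16Rik are an AP-1 site (TGACTCA on either strand). Lincenc1 and 4930461G14Rik hold none of the 4 motifs searched.

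Several members host microRNAs, short RNAs that find their targets through bases 2 to 8, the seed, shown in capitals. The mature sequences below, from RefSeq in build GRCm38.p6, lie in 3 hosts whose levels are given further on.
miR-17-5p in Mir17hg: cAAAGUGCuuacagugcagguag
miR-20a-5p in Mir17hg: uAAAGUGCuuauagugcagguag
miR-18a-5p in Mir17hg: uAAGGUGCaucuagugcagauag
miR-19a-3p in Mir17hg: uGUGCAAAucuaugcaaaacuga
miR-19b-3p in Mir17hg: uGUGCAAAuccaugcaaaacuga
miR-92a-3p in Mir17hg: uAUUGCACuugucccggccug
miR-9-5p in C130071C03Rik: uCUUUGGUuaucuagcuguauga
miR-29b-3p in A330023F24Rik: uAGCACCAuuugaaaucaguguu
miR-29c-3p in A330023F24Rik: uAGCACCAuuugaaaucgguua
The pair miR-17-5p and miR-20a-5p shares a seed, as do miR-19a-3p with miR-19b-3p and miR-29b-3p with miR-29c-3p. The counts are of the host genes, and mature microRNAs were not measured.

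The libraries held 11906701 to 19191649 counts, and 3 counts in 1 library stand for 0.156 to 0.252 CPM. Counts of replicate pairs were further apart than sampling alone gives (1.9 to 17.5 times by chi-square), and levels below are CPM with edgeR's TMM factors. Trim28 was at 286 to 361 CPM in the induced controls, 52.2 to 64 in the Trim28 knockdown and 95.5 to 107 in the double knockdown. Setdb1 was at 76.4 to 84.5, 121 to 124 and 54 to 70.0 CPM. Pou5f1, which encodes Oct4, was at 17.5 to 21 CPM in uninduced cells and 443 to 544 in the induced controls. It was at 536 to 613 CPM in the Trim28 knockdown and 291 to 418 in the double knockdown. There it was lower than in the induced controls (log2 change -0.41, edgeR adjusted p = 0.00916) and in the Trim28 knockdown (-0.65, adjusted p = 0.000621). The part of this difference in the lincRNA results was not tested. The sum of 8 simple epithelium markers was 9.49 to 11 CPM in uninduced cells, 1748.5 to 2201 in the induced controls, 1774 to 2011 in the Trim28 knockdown and 992 to 1232 in the double knockdown. That of 9 pluripotent cell markers was 0.25 to 0.841, 220.0 to 291, 238 to 266 and 142 to 172 CPM, and that of 10 fibroblast markers 24192.5 to 28203, 15250.0 to 22230.1, 12024 to 13504 and 16428.5 to 18968 CPM. All 8 epithelial and all 9 pluripotent markers rose with induction and 7 of 10 fibroblast markers fell. In the double knockdown 8 epithelial and 8 pluripotent markers fell, against 3 and 4 in the Trim28 knockdown. Of the fibroblast markers 2 rose and 6 fell in the Trim28 knockdown, and 3 rose and 2 fell in the double knockdown. With the added Setdb1 hairpin 8 epithelial markers fell, 1 pluripotent marker rose and 4 fell, and 7 fibroblast markers rose. The 7 macrophage, 6 endothelial and 7 neural markers summed to 5.63 to 69, 11.5 to 73.3 and 157 to 296 CPM over the 12 libraries. With induction 4 of 4 tested macrophage markers rose, 3 of 4 endothelial markers rose and 1 fell, and 3 of 4 neural markers rose. Of these 12, in the same order, 0, 3 and 1 rose and 2, 0 and 1 fell in the Trim28 knockdown, 0, 1 and 1 rose and 3, 1 and 2 fell in the double knockdown, and 2 of each fell with the added hairpin. Of the macrophage list Tyrobp, Ptprc and Emr1 had group means of 0 to 0.397 CPM, of the endothelial list Cdh5 and Emcn 0.0208 to 0.212, and of the neural list Sox10, Gfap and Neurod1 0 to 0.149. Other markers of these lists were higher with induction. The means of uninduced cells and induced controls were 0.276 and 42.4 CPM for Laptm5, 0.406 and 7.47 for Itgam, 7.43 and 46.6 for Tek, 0 and 3.73 for Tie1, 1.68 and 52.6 for Mbp, and 22.5 and 104 for Tubb3. In the knockdowns Tek reached 60.7 and Tie1 7.15 CPM with the Trim28 hairpin, and Tubb3 181 CPM in the double knockdown. In bulk RNA fewer cells of a type and less RNA per cell cannot be told apart, and the part of these markers in the lincRNA results was not tested.

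The 224 genes were spread over the autosomes, X (5 genes) and Y (1 gene), with 19 on chromosome 1. A later annotation of build GRCm38, GENCODE M21, holds 210 of their identifiers. It calls 151 of them lincRNA, 19 antisense, 17 processed transcript, 11 transcripts of a bidirectional promoter and 6 protein-coding. The median span was 7937 bases, from 640 to 340111, and the median exon length of the 206 genes with a length was 2598 bases, with a median of 3 exon blocks. The spans of 55 members overlap a protein-coding gene of the table, and 97 more lie within 10 kb of one. A protein-coding start in the opposite direction within 1 kb was found for 44 members. No source states that strand was used in counting, and without it the reads of antisense or overlapping partners cannot be separated.

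Most members were weakly expressed. Their median mean level over 12 libraries was 1.92 CPM, against 29.8 CPM for protein-coding genes past the same threshold, and 194 of them (86.6%) were under 10 CPM, against 26.6% of those coding genes. Per length the median levels were 0.829 and 6.33 CPM per kilobase of exon. A mean of 100 CPM was reached by 6 members, 24 lay from 10 to under 100, 141 from 1 to under 10, and 53 under 1. The members took 0.442% to 0.600% of all reads, and the top 5 (Malat1, Xist, Yam1, Neat1 and Miat) 73.8% to 81.0% of that. The median coefficient of variation between replicates was 14.6% to 17.9% over all members and 6.15% to 10.2% over those of 10 CPM or more.

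**Figure D1:**
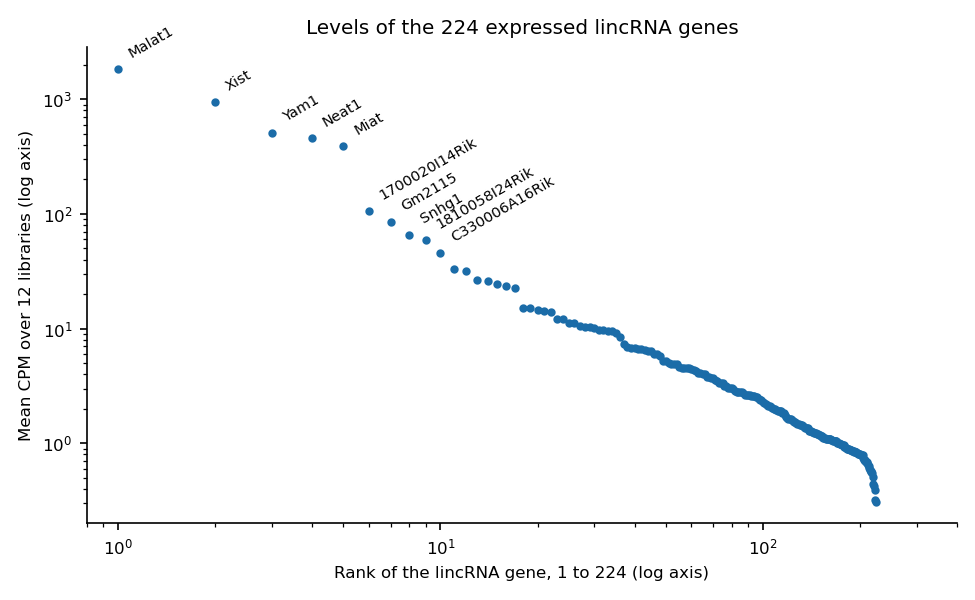
Mean level of each of the 224 lincRNA genes over 12 libraries (CPM, log axis) by rank. Most genes lie low: 194 of them are under 10 CPM and 6 reach 100 CPM.

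The threshold was reached in all 4 groups by 118 members, in 3 by 38, in 2 by 29 and in 1 by 39. Of the last, 22 reached it in uninduced cells, 4 in the induced controls, 6 in the Trim28 knockdown and 7 in the double knockdown. Just inside lay Gm26549 at 1.007, Gm16702 and Gm26867 at 1.016, Gm26899 at 1.037 and Gm12840 at 1.047 CPM of column totals in their highest group. Just outside lay 3010003L21Rik at 0.9854, Gm15556 at 0.9821, Fam169b at 0.972, Gm19705 at 0.9679 and Gm17354 at 0.9646 CPM. The highest group mean was in uninduced cells for 107 members, in the induced controls for 43, in the Trim28 knockdown for 45 and in the double knockdown for 29. No read was found in the 3 uninduced libraries for 16 members. All 224 passed the low-count filter of the test.

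Choosing members by their level in at least 1 group favours genes that differ between groups. The counts of calls thus describe the set and support nothing about it. Calls are edgeR quasi-likelihood tests with an adjusted p under 0.05 over 14520 genes. With induction (induced controls against uninduced cells) 56 members (25%) rose and 71 (31.7%) fell, where 32.7% of all genes tested rose and 32.7% fell, and 33.1% and 33.6% of tested genes past the same CPM threshold. In the Trim28 knockdown against the induced controls 33 (14.7%) rose and 15 (6.7%) fell, against 13.1% and 11.8% of all genes and 13.5% and 12.2% past the threshold. These 48 calls were 29 without replicate 2 of the Trim28 knockdown, with 21 rises. The 15 falls were 8 without any 1 of its 3 replicates, and 10 without replicate 2 or replicate 3 of the induced controls. In the double knockdown against the induced controls 40 (17.9%) rose and 26 (11.6%) fell, against 18.1% and 18.5% of all genes and 18.6% and 19.1% past the threshold. Between the double and the Trim28 knockdown, which differ by the added Setdb1 hairpin, 15 (6.7%) rose and 19 (8.48%) fell, against 10% and 11.7% of all genes and 10.4% and 12.1% past the threshold. Between these groups Setdb1 changed by -0.95 (adjusted p = 2.53e-06), and Trim28 was higher in the double knockdown (0.82, adjusted p = 4.3e-05). The part of the higher Trim28 level in changes with the added hairpin was not tested. Against the induced controls Setdb1 changed by -0.36 (adjusted p = 0.00363).

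The members' median log2 changes were -0.20, 0.05, 0.06 and -0.02 in these comparisons, beside -0.02, 0.00, 0.00 and 0.00 over all genes tested. Single members ranged from -3.24 to 9.20 with induction, -1.24 to 5.92 in the Trim28 knockdown, -2.41 to 7.27 in the double knockdown and -2.22 to 4.06 with the added hairpin. Of the 118 members past the threshold in all groups, 14 rose and 48 fell with induction, 14 rose and 8 fell in the Trim28 knockdown, 19 rose and 13 fell in the double knockdown, and 6 rose and 8 fell with the added hairpin. Among the 12129 tested genes at that level in all groups, 29.5% rose and 35.5% fell with induction, 12.3% and 11.3% in the Trim28 knockdown, 18.8% and 17.3% in the double knockdown, and 10.9% and 10.1% with the added hairpin. The first 3 comparisons share the induced control libraries and the fourth shares both knockdown groups, so values are given side by side and the likeness of comparisons was not tested.

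**Figure D2:**
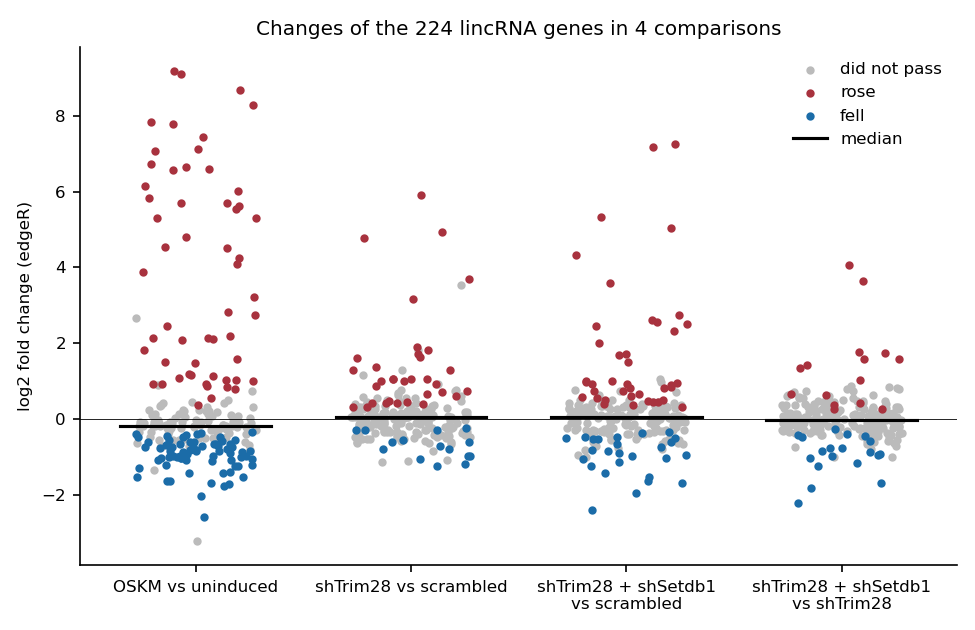
Log2 fold change (edgeR) of each of the 224 lincRNA genes in the 4 comparisons, with called genes marked. Single genes reach 9.20 with induction and 7.27 in the double knockdown, while the medians lie between -0.20 and 0.06.

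Malat1, an RNA of nuclear speckles (chromosome 19, 5795690 to 5802672), was the most abundant member by CPM. It was at 1871, 2174 and 1989.9 CPM in uninduced cells and 2086, 1997 and 1625 in the induced controls. The Trim28 knockdown held 2131, 1799.8 and 2058 CPM and the double knockdown 1532, 1557 and 1399, below all other libraries. Malat1 fell in the double knockdown (log2 change -0.35 ± 0.094, SE, n = 3 per group, edgeR adjusted p = 0.00877) and with the added hairpin (-0.42 ± 0.094, adjusted p = 0.00489). With induction and in the Trim28 knockdown its changes of -0.08 and 0.07 did not pass. Per kilobase of exon Malat1 stood at 265 CPM, Yam1 at 279, Xist at 52.9, Miat at 41.9 and Neat1 at 22.3. Yam1 overlaps a RefSeq pseudogene of ribosomal RNA, Rn18s-rs5, over 1245 of its 1831 bases, so its counts are uncertain. It was at 934 CPM in replicate 1 of the double knockdown and at 404 to 648 in the other libraries, and it did not pass in any of the 4 comparisons.

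Neat1, the scaffold of paraspeckles (chromosome 19, 5824708 to 5845478), was at 688, 651 and 676 CPM in uninduced cells and 386, 365 and 362 in the induced controls. It was at 507, 441 and 428 CPM in the Trim28 knockdown, above the induced controls, and at 369, 336 and 347 in the double knockdown, whose range overlapped theirs. Neat1 fell with induction (-0.86 ± 0.07, adjusted p = 1.97e-08), rose in the Trim28 knockdown (0.31 ± 0.07, adjusted p = 0.00415) and fell with the added hairpin (-0.39 ± 0.07, adjusted p = 0.000987). In the double knockdown the change was -0.08 ± 0.07 (adjusted p = 0.387). The RNA 1700020I14Rik, known as Cyrano and lying beside Oip5, went from 109, 108 and 139 CPM in uninduced cells to 84.8, 101 and 80.3 in the induced controls and 122, 117 and 116 in the Trim28 knockdown. It fell with induction (-0.42 ± 0.098, adjusted p = 0.00117) and rose in the Trim28 knockdown (0.42 ± 0.098, adjusted p = 0.00435), where its libraries were above the induced controls.

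Xist, the RNA that coats the inactive X chromosome (chromosome X, 103460375 to 103483217), was at 1093, 994 and 1125 CPM in uninduced cells and 1082, 1204 and 965 in the induced controls. It was at 884, 902 and 867 CPM in the Trim28 knockdown and 763, 857 and 653 in the double knockdown, so that all 6 knockdown libraries were below the others. Xist fell in the double knockdown (-0.52 ± 0.094, adjusted p = 0.000484) and in the Trim28 knockdown (-0.29 ± 0.094, adjusted p = 0.0308). The second call was lost without induced control replicate 2 (0.0889), without Trim28 knockdown replicate 1 (0.0685), without Trim28 knockdown replicate 2 (0.0615) and without Trim28 knockdown replicate 3 (0.0824), with adjusted p from 0.000534 to 0.0889 over all alternatives. Ftx, a gene of the X-inactivation centre that holds microRNA hairpins, was at 11, 14.1 and 12.3 CPM in the induced controls, 8.63, 8.27 and 8.58 in the Trim28 knockdown and 10.2, 8.61 and 7.53 in the double knockdown, lower in both (-0.55 ± 0.14, adjusted p = 0.00849, and -0.50 ± 0.14, adjusted p = 0.0099). Jpx, an activator of Xist in mouse, was at 0.818 to 1.42 CPM in every library and did not pass in any comparison. The list of nuclear and X-linked lincRNAs has 6 members. With induction 0 rose and 2 fell, and in the Trim28 knockdown 2 rose and 2 fell. The double knockdown had 0 rises and 3 falls, and the added Setdb1 hairpin 0 rises and 2 falls. Medians in this order were -0.03, 0.08, -0.21 and -0.24. Among all genes tested, in the same order, 32.7%, 13.1%, 18.1% and 10% rose and 32.7%, 11.8%, 18.5% and 11.7% fell.

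Miat, a nuclear RNA best known from neurons (chromosome 5, 112213228 to 112229395, start region shown above), was at 6.68, 6.49 and 6.08 CPM in uninduced cells and 536, 657 and 646 in the induced controls (6.58 ± 0.13, adjusted p = 6.68e-16). The Trim28 knockdown held 478, 546 and 478 CPM and the double knockdown 382, 491 and 440.0. All 6 were below the induced controls except replicate 2 of the Trim28 knockdown. Miat fell in the double knockdown (-0.49 ± 0.093, adjusted p = 0.00075) and in the Trim28 knockdown (-0.29 ± 0.093, adjusted p = 0.0306). The latter call was lost without induced control replicate 2 (0.0702), without induced control replicate 3 (0.102), without Trim28 knockdown replicate 1 (0.101) and without Trim28 knockdown replicate 3 (0.103), with adjusted p from 0.0011 to 0.103 over all alternatives. Mir143hg, named Carmn in GENCODE and known from smooth muscle, fell with induction from 4.93, 5.33 and 4.08 CPM to 2.63, 2.43 and 2 (-1.03 ± 0.23, adjusted p = 0.00106). Its neighbour Gm20748 (Bvht in GENCODE, known from mouse heart development) was at 1.18 to 1.84 CPM, and Fendrr, which lies beside Foxf1, at 0.583 to 1.55 CPM. Neither passed in any comparison. Miat, Mir143hg, Gm20748 and Fendrr are the 4 members of a list of lincRNAs linked to development. Of these, 1 rose and 1 fell with induction, 0 rose and 1 fell in the Trim28 knockdown, and 0 rose and 1 fell in the double knockdown. With the added Setdb1 hairpin 0 rose and 0 fell, and the 4 medians were -0.29, -0.30, -0.16 and -0.05. Among all genes tested 32.7% rose and 32.7% fell with induction, and 11.8% and 18.5% fell in the Trim28 and the double knockdown.

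Among the lincRNAs tied to pluripotent cells, Lincenc1 (chromosome 13, 97434970 to 97497007) was highest in the double knockdown. It was at 0.749, 1.03 and 0.647 CPM in uninduced cells and 7.07, 7.78 and 8.1 in the induced controls. The Trim28 knockdown held 8.88, 8.04 and 10.8 CPM and the double knockdown 25.5, 33.8 and 33.3, above all other libraries. Lincenc1 rose with induction (3.23 ± 0.23, adjusted p = 2.64e-09), in the double knockdown (2.01 ± 0.14, adjusted p = 2.08e-08) and with the added hairpin (1.74 ± 0.13, adjusted p = 5.05e-07). In the Trim28 knockdown the change was 0.27 ± 0.15 (adjusted p = 0.204).

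The gene 2410088K16Rik (chromosome 1, 88754890 to 88755736), named Platr5 for a pluripotency associated transcript, had 0 reads in uninduced cells and 2 reads over the 3 induced controls. It was at 2.47, 2.72 and 3.44 CPM in the Trim28 knockdown and 6.76, 6.77 and 8.58 in the double knockdown, with no overlap between any of the groups with doxycycline. By reads it was 71.5-fold higher (95% counting interval 19.4 to 596) in the Trim28 knockdown than in the induced controls and 182-fold higher (95% counting interval 50 to 1508) in the double knockdown. It rose from the Trim28 to the double knockdown (1.35 ± 0.18, adjusted p = 0.000143). Both the Trim28 and the double knockdown calls passed (adjusted p = 4.1e-07 and 6.7e-09). This gene met the level threshold only in the knockdowns and qualified by rises without overlap, so the separation from the induced controls follows from the choice.

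Gm14136 (Platr15) was at 0.234, 0.243 and 0.15 CPM in the induced controls, 1.9, 1.54 and 2.22 in the Trim28 knockdown and 0.882, 1.3 and 0.934 in the double knockdown, and the 3 groups did not overlap. It rose in the Trim28 knockdown (3.17 ± 0.35, adjusted p = 6.75e-06) and in the double knockdown (2.32 ± 0.39, adjusted p = 0.00025). Gm14136 met the level threshold through the knockdowns and qualified by its rise without overlap, so this separation from the induced controls follows from the choice. With induction it was 4.76-fold higher (95% counting interval 1.01 to 44.6) from 2 reads, a call (adjusted p = 0.0319) that was lost with no filter on low counts (0.0588), without uninduced replicate 3 (0.129), without induced control replicate 1 (0.0724), without induced control replicate 2 (0.061) and with DESeq2 (0.0743), with adjusted p from 0.0297 to 0.129 over all alternatives. Its fall with the added hairpin (-0.85 ± 0.25, adjusted p = 0.0236) was lost without Trim28 knockdown replicate 1 (0.0587), without Trim28 knockdown replicate 3 (0.115), without double knockdown replicate 1 (0.104), without double knockdown replicate 3 (0.085) and with DESeq2 (0.102), with adjusted p from 0.0189 to 0.115 over all alternatives. Crnde, which lies beside Irx5 and is raised in human colorectal tumours, fell with induction from 7.12, 6.49 and 6.99 CPM to 3.74, 5.18 and 3.7 (-0.73 ± 0.17, adjusted p = 0.00143). Gm5665 (Platr25) was at 1.41 to 3.03 CPM and did not pass in any comparison. Of the 5 members of this list, 2 rose and 1 fell with induction, 2 rose and 0 fell in the Trim28 knockdown, 3 rose and 0 fell in the double knockdown, and 2 rose and 1 fell with the added Setdb1 hairpin, with medians of 2.07, 0.27, 2.01 and 0.40. Among all genes tested 32.7% rose and 32.7% fell with induction, and 13.1% and 18.1% rose in the Trim28 and the double knockdown. With the added hairpin 10% of them rose and 11.7% fell. The 9 pluripotent cell markers given above include 8 that fell in the double knockdown.

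**Figure D3:**
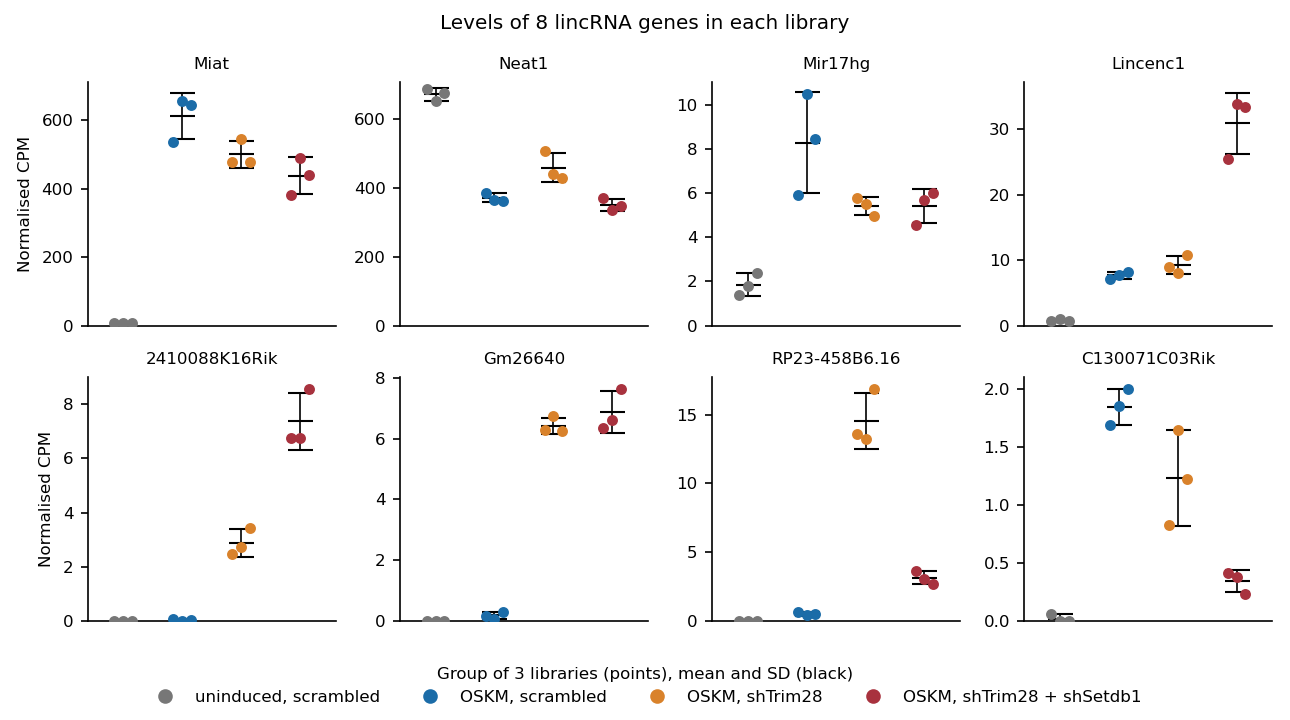
Level (CPM) of 8 lincRNA genes in each of the 12 libraries by group, with group mean and SD. Lincenc1 and 2410088K16Rik are highest in the double knockdown (means 30.9 and 7.37 CPM), and RP23-458B6.16 is highest in the Trim28 knockdown (14.6 CPM).

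A search chosen after values were seen found 16 RefSeq microRNA hairpins inside 9 members on the same strand. Mir17hg (chromosome 14, 115042879 to 115046727) holds 6 of them, whose microRNAs are known to promote proliferation. It was at 1.37, 1.8 and 2.39 CPM in uninduced cells and 5.9, 10.5 and 8.45 in the induced controls, with no overlap (2.14 ± 0.23, adjusted p = 5.18e-07). The Trim28 knockdown held 5.77, 5.5 and 4.96 CPM and the double knockdown 4.53, 5.69 and 6.01, of which the second overlapped the induced controls. Mir17hg fell in the Trim28 knockdown (-0.60 ± 0.19, adjusted p = 0.0323). That call was lost without induced control replicate 2 (0.11), without induced control replicate 3 (0.0885), without Trim28 knockdown replicate 1 (0.0558), without Trim28 knockdown replicate 2 (0.0784) and without Trim28 knockdown replicate 3 (0.107), with adjusted p from 0.00186 to 0.11 over all alternatives. It fell in the double knockdown as well (-0.60 ± 0.19, adjusted p = 0.0233). This call was lost without induced control replicate 2 (0.0902), without induced control replicate 3 (0.0654) and without double knockdown replicate 1 (0.0988), with adjusted p from 0.00118 to 0.0988 over all alternatives.

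C130071C03Rik (chromosome 13, 83721381 to 83884194) holds Mir9-2, the hairpin of a microRNA known from neural cells. It had 1 read in uninduced cells and 1.69, 1.86 and 2 CPM in the induced controls, 87.5-fold higher (95% counting interval 15.3 to 3493). It was at 0.825, 1.65 and 1.23 CPM in the Trim28 knockdown and 0.412, 0.379 and 0.234 in the double knockdown, below both other groups with doxycycline. It fell in the double knockdown (-2.41 ± 0.34, adjusted p = 4.4e-05) and with the added hairpin (-1.84 ± 0.36, adjusted p = 0.00194), while in the Trim28 knockdown the change was -0.58 ± 0.27 (adjusted p = 0.129). RP24-144C10.1, which holds Mir6351, had 2 reads in uninduced cells and 2.98, 7.21 and 5.3 CPM in the induced controls, 117-fold higher (95% counting interval 32 to 971). It fell to 0.882, 2.38 and 1.58 CPM in the double knockdown (-1.63 ± 0.34, adjusted p = 0.00134), with no overlap. A330023F24Rik, which holds Mir29b-2 and Mir29c, fell with induction from 1.31, 1.35 and 1.62 CPM to 0.409, 0.81 and 0.15 (-1.78 ± 0.38, adjusted p = 0.000615).

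A930011O12Rik, named as host of Mir124a-1 in GENCODE, had 0 reads in uninduced cells and 1.99, 3.16 and 2.1 CPM in the induced controls, at least 36.5-fold higher with 3 counts over the group taken as the floor. It was at 1.97, 2.3 and 1.87 CPM in the Trim28 knockdown and fell to 1.06, 1.14 and 1.4 in the double knockdown (-0.97 ± 0.24, adjusted p = 0.00664). Its fall with the added hairpin (-0.77 ± 0.25, adjusted p = 0.0402) was lost without Trim28 knockdown replicate 1 (0.0751), without Trim28 knockdown replicate 2 (0.153), without Trim28 knockdown replicate 3 (0.0701), without double knockdown replicate 1 (0.138), without double knockdown replicate 2 (0.0985), without double knockdown replicate 3 (0.055) and with DESeq2 (0.0765), with adjusted p from 0.0166 to 0.153 over all alternatives. Gm26945, 40011 bases from Rtl1, was at 2.1, 1.54 and 1.75 CPM in the induced controls and 0.823, 1.25 and 0.817 in the double knockdown. Its fall there (-0.90 ± 0.28, adjusted p = 0.0184) was lost without induced control replicate 1 (0.0573), without double knockdown replicate 1 (0.0703) and without double knockdown replicate 3 (0.0654), with adjusted p from 0.00884 to 0.0703 over all alternatives. The gene 5830416P10Rik (Mirt1) rose with induction from 0.187, 0.0642 and 0.0647 CPM to 5.2, 6.16 and 4.8 (5.55 ± 0.33, adjusted p = 3.04e-10) and was at 4.76 to 6.32 CPM in the knockdowns. The microRNA host list has 5 members. With induction 3 rose and 1 fell, and in the Trim28 knockdown 0 rose and 1 fell. The double knockdown had 0 rises and 3 falls, and the added Setdb1 hairpin 0 rises and 1 fall. Medians in this order were 2.14, -0.20, -0.67 and -0.36. Of all genes tested, in the same order, 32.7%, 13.1%, 18.1% and 10% rose and 32.7%, 11.8%, 18.5% and 11.7% fell. No RefSeq hairpin was found inside Mirt1, Gm26945, A930011O12Rik or Mir143hg, which the list holds by name. The hairpin search added 4 members outside the naming rule, 1 of them with a hairpin on the opposite strand only. The gene 6720427I07Rik (Mirlet7d) fell with induction (-0.97 ± 0.2, adjusted p = 0.000385), and its rise in the double knockdown (0.60 ± 0.2, adjusted p = 0.0286) was lost without induced control replicate 1 (0.0644), without induced control replicate 2 (0.0796), without double knockdown replicate 1 (0.154) and without double knockdown replicate 3 (0.0526), with adjusted p from 0.014 to 0.154 over all alternatives. For E130102H24Rik (Mir101a) the fall in the Trim28 knockdown (-0.81 ± 0.26, adjusted p = 0.031) was lost with no filter on low counts (0.0601), without induced control replicate 1 (0.11), without induced control replicate 2 (0.0515), without Trim28 knockdown replicate 1 (0.0676), without Trim28 knockdown replicate 2 (0.125), in a fit of the 2 groups alone (0.051) and with DESeq2 (0.097), with adjusted p from 0.0259 to 0.125 over all alternatives. Its fall in the double knockdown (-0.86 ± 0.26, adjusted p = 0.0167) was lost without induced control replicate 1 (0.0651), without double knockdown replicate 1 (0.0502), without double knockdown replicate 2 (0.053) and with DESeq2 (0.0506), with adjusted p from 0.014 to 0.0651 over all alternatives. The fall of 2900076A07Rik (Mir1839) with induction (-0.40 ± 0.15, adjusted p = 0.0313) was lost with no filter on low counts (0.0528), without uninduced replicate 2 (0.0826), without uninduced replicate 3 (0.0662), without induced control replicate 2 (0.0832), without induced control replicate 3 (0.101), in a fit of the 2 groups alone (0.0662) and with DESeq2 (0.0827), with adjusted p from 0.0217 to 0.101 over all alternatives, and it passed in no other comparison. In 5330426P16Rik the hairpin, Mir6363, lies on the opposite strand. This gene fell in the Trim28 knockdown (-0.73 ± 0.1, adjusted p = 8.6e-05) and the double knockdown (-0.37 ± 0.1, adjusted p = 0.00981), and its rise with the added Setdb1 hairpin (0.36 ± 0.11, adjusted p = 0.0237) was lost with no filter on low counts (0.0664), without Trim28 knockdown replicate 1 (0.0662), without Trim28 knockdown replicate 2 (0.0661), without Trim28 knockdown replicate 3 (0.0788), without double knockdown replicate 2 (0.0551), without double knockdown replicate 3 (0.0889) and with DESeq2 (0.0523), with adjusted p from 0.0173 to 0.0889 over all alternatives.

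Small nucleolar RNAs guide the modification of other RNAs, and 8 members are their hosts or are linked to growth. Snhg1, the most abundant by CPM, was at 59.8 to 74.1 CPM over the 12 libraries, and Snhg4, Snhg6 and 2410004N09Rik (Epb41l4aos) were at 11.4 to 17.6, 23.5 to 34 and 7.2 to 10.4 CPM. None of these 4 passed in any comparison. Snhg12 fell with induction from 36.3, 34.4 and 39.6 CPM to 21.1, 23.9 and 24.6 (-0.67 ± 0.088, adjusted p = 5.18e-06), and Snhg18 from 35, 36.1 and 38 to 25.7, 18.9 and 20.1 (-0.75 ± 0.12, adjusted p = 2.8e-05). Snhg18 was higher in the double than in the Trim28 knockdown (0.41 ± 0.12, adjusted p = 0.0221), a call that was lost without Trim28 knockdown replicate 2 (0.0928), without Trim28 knockdown replicate 3 (0.116), without double knockdown replicate 1 (0.0854) and without double knockdown replicate 3 (0.0595), with adjusted p from 0.00265 to 0.116 over all alternatives. Snhg7 fell with induction from 15.7, 14.8 and 16.2 CPM to 11.2, 12 and 11.2 (-0.45 ± 0.1, adjusted p = 0.00101) and rose in the double knockdown to 14.8, 16 and 16 (0.45 ± 0.1, adjusted p = 0.0024). Its rise in the Trim28 knockdown (0.40 ± 0.1, adjusted p = 0.00901) was lost without Trim28 knockdown replicate 1 (0.0584), with adjusted p from 0.00603 to 0.0584 over all alternatives. The rise of 2810008D09Rik (Snhg20) in the Trim28 knockdown (0.45 ± 0.15, adjusted p = 0.0406) was lost without induced control replicate 2 (0.106), without induced control replicate 3 (0.134), without Trim28 knockdown replicate 1 (0.111), without Trim28 knockdown replicate 2 (0.084), without Trim28 knockdown replicate 3 (0.105), without double knockdown replicate 2 (0.0501) and without double knockdown replicate 3 (0.0501), with adjusted p from 0.0155 to 0.134 over all alternatives. Of the 8 members of this list, 0 rose and 3 fell with induction, 2 rose and 0 fell in the Trim28 knockdown, 1 rose and 0 fell in the double knockdown, and 1 rose and 0 fell with the added Setdb1 hairpin, with medians of -0.04, -0.03, 0.07 and 0.13. Of all genes tested, 32.7% fell with induction. In the Trim28 knockdown 13.1% of them rose, in the double knockdown 18.1% and with the added hairpin 10%.

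Pvt1, which lies 47612 bases from Myc, fell with induction from 29.7, 30.7 and 35.8 CPM to 18.5, 18.6 and 17 (-0.83 ± 0.099, adjusted p = 1.57e-06), while Myc itself, also on the induced construct, rose by 2.5. Pvt1 was at 24.6, 21 and 21.2 CPM in the Trim28 knockdown and 24.1, 21.4 and 21 in the double knockdown, above the induced controls in all 6 libraries. Its rise in the Trim28 knockdown (0.30 ± 0.1, adjusted p = 0.0363) was lost without induced control replicate 1 (0.0552), without induced control replicate 3 (0.141), without Trim28 knockdown replicate 1 (0.182), without Trim28 knockdown replicate 2 (0.0572), without Trim28 knockdown replicate 3 (0.0597) and in a fit of the 2 groups alone (0.0554), with adjusted p from 0.0218 to 0.182 over all alternatives. Its rise in the double knockdown (0.30 ± 0.1, adjusted p = 0.028) was lost without induced control replicate 3 (0.118), without double knockdown replicate 1 (0.128) and in a fit of the 2 groups alone (0.0533), with adjusted p from 0.0164 to 0.128 over all alternatives. Trp53cor1 (lincRNA-p21), a p53 target that lies beside Cdkn1a, was at 2.47 to 3.73 CPM, and 1190002F15Rik (Lockd), beside Cdkn1b, at 0.236 to 1.75 CPM. Neither passed in any comparison. Of the 4 members of the list of growth control and cancer lincRNAs, which shares Crnde with the pluripotency list, 0 rose and 2 fell with induction, 1 rose and 0 fell in the Trim28 knockdown, 1 rose and 0 fell in the double knockdown, and 0 rose and 0 fell with the added Setdb1 hairpin, with medians of -0.27, -0.12, 0.04 and 0.20. Over all genes tested 32.7% fell with induction, and 13.1% and 18.1% rose in the Trim28 and the double knockdown.

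The other abundant members were Gm2115, 1810058I24Rik and C330006A16Rik. Gm2115, which GENCODE M21 calls protein-coding, fell with induction from 141, 145 and 136 CPM to 66.8, 57.3 and 54.1 (-1.25 ± 0.086, adjusted p = 2.13e-09) and rose in the double knockdown to 82.8, 78.9 and 71.9 (0.39 ± 0.086, adjusted p = 0.00211). Its rise with the added hairpin (0.27 ± 0.085, adjusted p = 0.0348) was lost without Trim28 knockdown replicate 2 (0.166), without Trim28 knockdown replicate 3 (0.112), without double knockdown replicate 1 (0.152) and without double knockdown replicate 2 (0.0776), with adjusted p from 0.0103 to 0.166 over all alternatives. The gene 1810058I24Rik fell with induction from 79.9, 72.9 and 82.5 CPM to 46.9, 45.4 and 50 (-0.72 ± 0.069, adjusted p = 1.18e-07) and rose in the double knockdown to 60.6, 59 and 63.9 (0.37 ± 0.069, adjusted p = 0.000636). Its rise with the added hairpin (0.27 ± 0.069, adjusted p = 0.011) was lost without double knockdown replicate 3 (0.0564), with adjusted p from 0.00229 to 0.0564 over all alternatives. C330006A16Rik was at 37.6 to 52.5 CPM and did not pass in any comparison.

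The largest rises with induction by fitted log2 change were of members with 0 reads in uninduced cells. With 3 counts over the group taken as the floor, 9130409J20Rik was at least 69.8-fold higher, Gm19980 at least 64.7-fold higher, Gm26888 at least 48.5-fold higher, Gm6507 at least 26.9-fold higher and Gm26829 at least 26.3-fold higher. In the induced controls they stood at 4.27, 4.05 and 4.85, at 3.62, 5.1 and 3.95, at 2.51, 3 and 3.65, at 2.05, 1.46 and 1.6 and at 1.81, 1.46 and 1.7 CPM. GENCODE M21 calls 9130409J20Rik protein-coding (Tmem238l), and it fell in the double knockdown to 2, 2.49 and 2.28 CPM (-0.96 ± 0.17, adjusted p = 0.000539) and with the added hairpin (-0.77 ± 0.17, adjusted p = 0.00573). Gm19980 fell in the Trim28 knockdown to 2.98, 2.72 and 2.57 CPM (-0.60 ± 0.2, adjusted p = 0.0452), a call that was lost without induced control replicate 2 (0.125), without induced control replicate 3 (0.0735), without Trim28 knockdown replicate 1 (0.0698), without Trim28 knockdown replicate 2 (0.113), without Trim28 knockdown replicate 3 (0.128) and with DESeq2 (0.072), with adjusted p from 0.0266 to 0.128 over all alternatives. In the double knockdown it fell to 2.12, 3.2 and 2.16 CPM (-0.74 ± 0.21, adjusted p = 0.0122), a call that was lost without double knockdown replicate 1 (0.0543), with adjusted p from 0.00266 to 0.0543 over all alternatives. The other 3 genes did not pass between groups with doxycycline.

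Of the members that fell with induction without overlap, 6 were named for the size of the fall, A330023F24Rik, described above, among them. The lowest value, that of RP24-479J20.1 (-3.24, adjusted p = 0.104), did not pass. The gene 8430436N08Rik fell from 0.874, 1.03 and 1.55 CPM to 0.234, 0.324 and 0.05 (-2.60 ± 0.49, adjusted p = 0.000188), and 9530052C20Rik, 491 bases from Pkn2, from 1.19, 1.41 and 1.23 to 0.234, 0.405 and 0.3 (-2.04 ± 0.35, adjusted p = 7.77e-05). Gm27031 fell from 4.49, 4.43 and 7.25 CPM to 2.05, 1.94 and 1.3 (-1.63 ± 0.26, adjusted p = 3.94e-05), and Gm16861, which overlaps Nudt16l1, from 1.69, 1.09 and 0.841 to 0.409, 0.486 and 0.25 (-1.71 ± 0.46, adjusted p = 0.00383). None of these 4 passed between groups with doxycycline. Gm26651 fell from 1.06, 1.28 and 1.04 CPM to 0.351, 0.405 and 0.3 (-1.69 ± 0.32, adjusted p = 0.000197) and rose again in the Trim28 knockdown to 1.08, 0.946 and 0.7 (1.37 ± 0.33, adjusted p = 0.00563) and in the double knockdown to 0.823, 1.14 and 0.993 (1.5 ± 0.32, adjusted p = 0.00169). In each step the groups did not overlap. These 6 members were named for a fall with induction without overlap, so the separation of uninduced cells and induced controls follows from the choice.

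Gm26640, RP23-458B6.16 and RP24-63G4.11 were at 0.643 CPM or less in every control library and rose in the Trim28 knockdown. All were named for a rise there without overlap and met the level threshold through the knockdowns, so this separation follows from the choice. Gm26640 (chromosome 6, 72953236 to 72957249) had 0 reads in uninduced cells, 0.175, 0.081 and 0.3 CPM in the induced controls, 6.28, 6.74 and 6.24 in the Trim28 knockdown and 6.35, 6.61 and 7.65 in the double knockdown. It rose in both (4.94 ± 0.27, adjusted p = 1.36e-08, and 5.04 ± 0.27, adjusted p = 7.46e-09), and the difference between the knockdowns was 0.10 ± 0.15 (adjusted p = 0.689). RP23-458B6.16 (chromosome 15, 75076210 to 75079094) was at 0.643, 0.405 and 0.5 CPM in the induced controls, 13.6, 13.2 and 16.9 in the Trim28 knockdown and 3.65, 3.09 and 2.69 in the double knockdown, and the 3 groups did not overlap. It rose in the Trim28 knockdown (4.78 ± 0.22, adjusted p = 1.99e-09) and the double knockdown (2.56 ± 0.26, adjusted p = 4.94e-06) and fell with the added hairpin (-2.22 ± 0.16, adjusted p = 8.79e-07). With induction Gm26640 was at least 3.17-fold higher and RP23-458B6.16 at least 8.24-fold higher, both against the floor. RP24-63G4.11 was at 0, 0.162 and 0.2 CPM in the induced controls, 1.84, 1.36 and 1.81 in the Trim28 knockdown and 2.41, 3.14 and 2.16 in the double knockdown, a rise in both (3.70 ± 0.48, adjusted p = 6.35e-05, and 4.33 ± 0.44, adjusted p = 4.82e-06). Its rise with induction from 0 reads (adjusted p = 0.0295) was lost without uninduced replicate 1 (0.0614), without uninduced replicate 2 (0.0601), without uninduced replicate 3 (0.0568), without induced control replicate 2 (0.0501) and without induced control replicate 3 (0.124), with adjusted p from 0.00621 to 0.124 over all alternatives. The gene 2010300F17Rik, which overlaps Skap1, rose from 0.993, 1.7 and 1.4 CPM to 4.63, 5.67 and 4.67 in the Trim28 knockdown (1.89 ± 0.23, adjusted p = 1.8e-05) and to 3.7, 3.85 and 5.43 in the double knockdown (1.68 ± 0.24, adjusted p = 4.53e-05).

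The genes 4930461G14Rik, AI427809 and 9530082P21Rik rose with induction and fell in the Trim28 knockdown. The gene 4930461G14Rik (chromosome 9, 58455173 to 58469623, start region shown above) was at 0.0624, 0.193 and 0.129 CPM in uninduced cells and 4.56, 5.67 and 5.75 in the induced controls. It fell to 2.41, 2.6 and 1.98 CPM in the Trim28 knockdown (-1.19 ± 0.18, adjusted p = 0.000129) and to 2.23, 2.92 and 2.63 in the double knockdown (-1.03 ± 0.17, adjusted p = 0.000256). Both knockdowns lay between the control groups without overlap. AI427809 went from 0.312, 0.193 and 0.259 CPM to 5.03, 6.4 and 6.85 with induction (4.54 ± 0.3, adjusted p = 1.08e-09) and fell to 2.28, 3.13 and 3.27 in the Trim28 knockdown (-1.07 ± 0.19, adjusted p = 0.00049) and 1.71, 2.6 and 1.99 in the double knockdown (-1.53 ± 0.19, adjusted p = 1.79e-05). The gene 9530082P21Rik, which overlaps Kremen2, fell from 3.1, 3.08 and 3.3 CPM to 1.59, 2.01 and 1.81 in the Trim28 knockdown (-0.81 ± 0.21, adjusted p = 0.0101) and 2.23, 1.9 and 1.23 in the double knockdown (-0.82 ± 0.21, adjusted p = 0.00609).

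For 3 more members the call in the Trim28 knockdown rested on few libraries. Gm10605, which overlaps Gm4980, was at 1.34, 1.86 and 2.6 CPM in the induced controls, 0.698, 1.18 and 1.11 in the Trim28 knockdown and 0.353, 0.487 and 0.642 in the double knockdown. Its fall in the double knockdown passed (-1.97 ± 0.34, adjusted p = 0.00028), and that in the Trim28 knockdown (-0.97 ± 0.3, adjusted p = 0.0258) was lost without induced control replicate 3 (0.179), without Trim28 knockdown replicate 1 (0.109), without Trim28 knockdown replicate 3 (0.0526) and with DESeq2 (0.0777), with adjusted p from 0.00706 to 0.179 over all alternatives. Gm16702, at the edge of the threshold, fell from 1.4, 0.648 and 0.9 CPM to 0.353, 0.217 and 0.35 in the double knockdown (-1.70 ± 0.4, adjusted p = 0.00466). Its fall in the Trim28 knockdown (-1.24 ± 0.38, adjusted p = 0.0286) was lost without induced control replicate 1 (0.122), without Trim28 knockdown replicate 1 (0.0829), without Trim28 knockdown replicate 3 (0.114) and with DESeq2 (0.109), with adjusted p from 0.0136 to 0.122 over all alternatives. The fall of A730056A06Rik, which overlaps Rgma, from 1.23, 1.46 and 1.3 CPM to 0.825, 0.414 and 0.758 in the Trim28 knockdown (-0.98 ± 0.32, adjusted p = 0.0354) was lost without induced control replicate 2 (0.068), without induced control replicate 3 (0.0793), without Trim28 knockdown replicate 2 (0.161), without Trim28 knockdown replicate 3 (0.0603) and with DESeq2 (0.0845), with adjusted p from 0.026 to 0.161 over all alternatives. Rgma itself changed by -0.92 in the Trim28 knockdown (adjusted p = 7.7e-05). Gm4980 changed by -0.30 (adjusted p = 0.276) in the Trim28 knockdown and -1.25 (adjusted p = 0.00018) in the double knockdown. Kremen2, which overlaps 9530082P21Rik, changed by 0.39 (adjusted p = 0.453) and -0.70 (adjusted p = 0.18) in the same order. The part of reads from these overlapping genes in the falls was not tested.

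Several weak members had a mean above 1 CPM in the double knockdown and below it in the other groups. RP24-479J20.1 was at 0.19, 0.0591 and 0 CPM in the Trim28 knockdown and 1.12, 0.867 and 1.28 in the double knockdown, a rise between them of 3.64 ± 0.58 (adjusted p = 0.000544). Against 0 reads in the induced controls it was at least 17.9-fold higher by the floor. RP23-263L18.2 was at 0.0634, 0.0591 and 0.0583 CPM in the Trim28 knockdown and 1, 1.19 and 1.17 in the double knockdown, 18.6-fold higher (95% counting interval 6.07 to 92.9) (adjusted p = 6.19e-05). Gm12840, also at the edge of the threshold, rose from 0.317, 0.355 and 0.233 CPM in the Trim28 knockdown to 1.06, 0.975 and 1.11 in the double knockdown (1.77 ± 0.38, adjusted p = 0.00367). RP24-319M18.1 rose between the same groups from 0.381, 0.65 and 1.17 CPM to 1.59, 2.98 and 2.1 (1.58 ± 0.35, adjusted p = 0.00535), and Gm26672, which overlaps the protocadherin gamma genes, from 0.317, 0.768 and 0.292 to 1.59, 1.46 and 1.11 (1.57 ± 0.38, adjusted p = 0.00789). These 5 were named because they rose with the added hairpin without overlap of the libraries, and they met the level threshold through the double knockdown, so the separation of the knockdowns follows from the choice.

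Other members fell with the added hairpin. Gm26708, 465 bases from Abhd17c, rose with induction from 0.187, 0.128 and 0.0647 CPM to 1.75, 2.51 and 1.8 (3.88 ± 0.38, adjusted p = 1.63e-07), rose in the Trim28 knockdown to 5.2, 6.62 and 6.24 (1.60 ± 0.18, adjusted p = 8.56e-06) and fell with the added hairpin to 2.88, 3.3 and 2.63 (-1.03 ± 0.17, adjusted p = 0.000467). Its rise in the double knockdown (0.57 ± 0.2, adjusted p = 0.0345) was lost without induced control replicate 1 (0.106), without induced control replicate 3 (0.128), without Trim28 knockdown replicate 3 (0.0509), without double knockdown replicate 1 (0.0673), without double knockdown replicate 2 (0.126), in a fit of the 2 groups alone (0.0694) and with DESeq2 (0.0891), with adjusted p from 0.0171 to 0.128 over all alternatives. Gm17322, which overlaps Cyp11a1, fell from 0.952, 1.48 and 1.11 CPM to 0.647, 0.217 and 0.234 with the added hairpin (-1.69 ± 0.4, adjusted p = 0.00808), and 4833407H14Rik from 1.65, 1.18 and 1.28 to 0.47, 0.542 and 0.701 (-1.25 ± 0.3, adjusted p = 0.00784). Gm26853 fell from 2.6, 2.54 and 3.62 CPM to 1.65, 1.52 and 1.34 (-0.96 ± 0.22, adjusted p = 0.0062) and was below the induced controls as well (-1.44 ± 0.22, adjusted p = 7.87e-05). Gm16701 was at 0.825, 0.946 and 1.46 CPM in the Trim28 knockdown and 0.47, 0.487 and 0.467 in the double knockdown, a fall (-1.17 ± 0.33, adjusted p = 0.0197) that was lost without Trim28 knockdown replicate 3 (0.123), without double knockdown replicate 1 (0.0655), without double knockdown replicate 3 (0.0595) and with DESeq2 (0.0554), with adjusted p from 0.015 to 0.123 over all alternatives. Against the induced controls its fall (-1.14 ± 0.34, adjusted p = 0.0148) was lost without induced control replicate 2 (0.0511), with adjusted p from 0.00937 to 0.0511 over all alternatives.

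**Figure D4:**
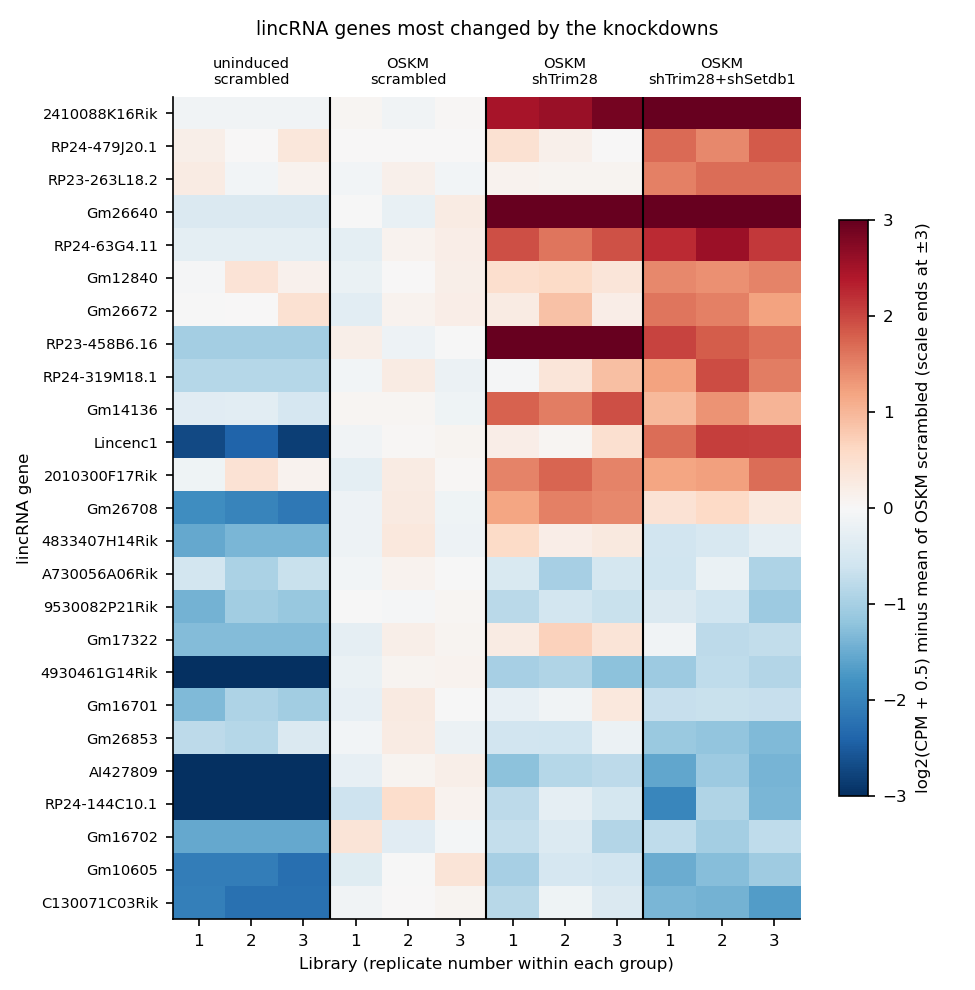
Level of 25 lincRNA genes in 12 libraries as log2(CPM + 0.5) minus the mean of the induced controls (red higher, blue lower), with colour limited to 3 log2 units either way. The 25 genes were chosen for calls without overlap between groups with doxycycline, so differences between these groups follow from the choice. An example is 2410088K16Rik, with group means of 2.88 and 7.37 CPM in the knockdowns.

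For 201 members the nearest protein-coding gene was tested too. Across these pairs the Pearson and Spearman correlations of log2 changes were 0.31 and 0.32 with induction, 0.31 and 0.22 in the Trim28 knockdown, 0.32 and 0.27 in the double knockdown and 0.18 and 0.36 with the added hairpin. Pairs are not independent, since they share libraries and, for 50 overlapping pairs, possibly reads. Where member and neighbour both passed, they moved the same way in 57 of 82 pairs with induction, 12 of 13 in the Trim28 knockdown, 27 of 31 in the double knockdown and 14 of 16 with the added hairpin. The matching share for neighbouring pairs of all genes was not computed, so these counts show nothing particular to lincRNA genes. Gadd45g, 124746 bases from Gm26651, had log2 changes of -1.03, 0.77 and 1.12 in the first 3 comparisons, beside -1.69, 1.37 and 1.5 for Gm26651. Ly6c1, 27380 bases from RP23-458B6.16, changed by 0.90, 0.77 and -0.13 in the Trim28 knockdown, the double knockdown and with the added hairpin, beside 4.78, 2.56 and -2.22 for the lincRNA. Arl4c, 52669 bases from 2410088K16Rik, rose by 0.46 and 0.82 in the knockdowns and by 0.37 with the added hairpin. Tmsb10, the nearest coding gene of Gm26640, did not pass in the Trim28 knockdown (0.19, adjusted p = 0.0925), where Gm26640 rose. In the double knockdown both rose, Tmsb10 by 0.50 (adjusted p = 0.000147). Enc1, 181931 bases from Lincenc1, fell by 0.95 with induction (adjusted p = 3.31e-09), where Lincenc1 rose. It rose in the Trim28 knockdown (0.30, adjusted p = 0.00379), the double knockdown (0.59, adjusted p = 5.65e-06) and with the added hairpin (0.29, adjusted p = 0.00505), where Lincenc1 changed by 0.27, 2.01 and 1.74.

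**Figure D5:**
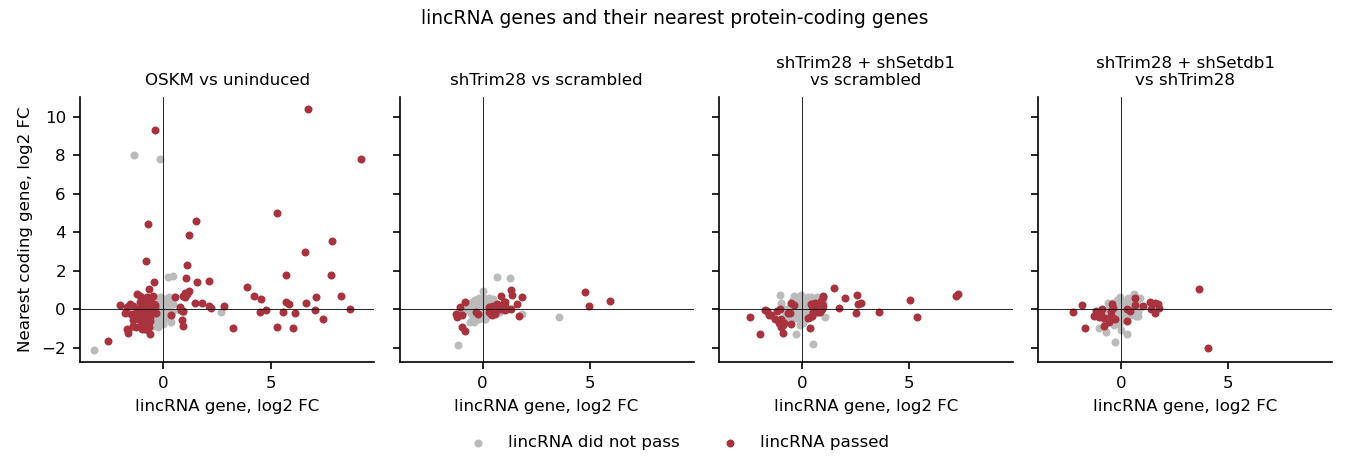
Log2 fold change of each lincRNA gene against that of its nearest tested protein-coding gene (201 pairs) in the 4 comparisons, in red where the lincRNA passed the test and grey where it did not. The spread is wide, with Pearson correlations between 0.18 and 0.32.

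Some members lie close to each other. The spans of 5830416P10Rik and 4833407H14Rik overlap on chromosome 19, and their log2 changes with induction were 5.55 and 4.24, while with the added hairpin they were -0.10 and -1.25. Those of 2700033N17Rik and G630016G05Rik overlap on chromosome 2, with -0.86 and -1.30 for induction. Crnde and Gm21817 overlap on chromosome 8 and had -0.73 and -0.03. Where spans overlap, the split of reads is uncertain.

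RefSeq start windows were found for 122 members, 135 windows in all. The letters ATGCAAAT (octamer, bound by Oct4) were in 3.7% of them, against 1.74% of all 32851 windows. CACGTG (E-box, bound by Myc) was in 11.9% against 7.15%, TGACTCA (AP-1) in 3.7% against 5.2%, and CCGCCC (GC box) in 51.9% against 35.7%, on either strand. A match describes the letters in the window and does not show binding.

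Proteins that bind or work with nuclear lincRNAs were compared as the other genes of the pathway. Of 24 such genes, 15 rose and 0 fell with induction, where 32.7% of all genes tested rose and 32.7% fell, with a median log2 change of 0.20. Ezh2 and Suz12, subunits of the Polycomb complex that methylates histone H3, rose by 1.00 and 0.63 (adjusted p = 2.42e-07 and 9.61e-05), Wdr5 by 1.02 (adjusted p = 9.64e-09) and Lbr, a nuclear envelope protein that binds Xist, by 0.84 (adjusted p = 2.23e-08). In the Trim28 knockdown Celf1 rose (0.22, adjusted p = 0.0135) and Ezh2 fell (-0.40, adjusted p = 0.00676). In the double knockdown Celf1 rose (0.26, adjusted p = 0.0034) and 4 fell, namely Ezh2 (-0.54), Suz12 (-0.51), Lbr (-0.31) and Sfpq (-0.19). With the added hairpin Elavl1 rose (0.20, adjusted p = 0.029), and Spen (-0.35) and Rbm15 (-0.32) fell. The medians in these 3 comparisons were -0.05, -0.11 and -0.06. Over all genes tested, 13.1% rose and 11.8% fell in the Trim28 knockdown, and 18.1% and 18.5% in the double knockdown. With the added hairpin 10% of them rose and 11.7% fell. Eed, another listed subunit of the Polycomb complex, did not pass with induction (0.18, adjusted p = 0.0821) or in the double knockdown (-0.11, adjusted p = 0.326).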

How the data were processed

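Per the labels' protocols, Trizol was used to extract RNA, and 1 µg of total RNA entered the TruSeq RNA kit. The authors deposited whole-number read counts per gene. TopHat2 2.0.12, Bowtie 1.1 and HTSeq are named, per the submitters' processing notes; the genome build and strand setting are not given in the sources used here. Members were chosen by CPM of column totals. The test was the quasi-likelihood test of edgeR 4.0.16 under R 4.3.3 (TMM factors, all 4 groups in 1 fit, minimum count 10, minimum total 15), with Benjamini-Hochberg adjustment over 14520 genes at 0.05. DESeq2 1.42.0 was an alternative, and tables were joined in Python 3.11.15 with pandas 2.3.3. The code was tested on simulated data. A fold against 0 reads uses a floor of 3 counts over the group; intervals (95%) and floors cover counting error only.

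The members and lists were chosen with earlier results of these data known. Named genes are, per comparison, up to 6 rises and 6 falls past the test without overlap, the 10 most abundant members, all list members, those beside the threshold, and nearest protein-coding neighbours of the first. For genes named by a rise or fall, the separation of the groups compared follows from that choice. After values had been seen, lists were widened to members whose GENCODE M21 name is listed (Snhg20, Epb41l4aos, Mirt1, Platr5, Platr15, Platr25, Lockd, Bvht, Carmn and Mir124a-1hg among them). The sequences shown, the hairpin search, the members it added and the split by level were also chosen then.

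Replicate numbers were checked for pairing by the correlation of deviations from group means. Between the double knockdown and the induced controls the correlations were 0.31, 0.141 and 0.188, and each sample correlated best with its own number. Pairing by number may hold there. The correlations are weak, and so few libraries per group can match by chance, so pairing is not established. The values reported are from the fit without the block. With the block, no call of that comparison was lost and 3 members that the text does not otherwise name passed as well (5033430I15Rik, 2310001H17Rik and AU020206).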

Additional observations from a re-analysis of the deposited data

How the results depend on the processing

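A minimum count of 30, which left 134 members tested, gave 81 calls in place of 127 with induction and 22 in place of 34 with the added Setdb1 hairpin. A threshold of 2 CPM left 132 members and one of 0.5 CPM 332. Leaving out 1 library at a time gave 109 to 129 calls with induction, 29 to 48 in the Trim28 knockdown, 54 to 67 in the double knockdown and 23 to 42 with the added hairpin. The 29 came without replicate 2 of the Trim28 knockdown. DESeq2 gave 108, 39, 58 and 32 calls, and fits of the 2 groups alone 107, 43, 60 and 51. With the replicate block the calls were 123, 51, 69 and 43. With induction and in the Trim28 knockdown not every sample correlated best with its own number. Between the double and the Trim28 knockdown each did, at 0.191, 0.032 and 0.0927, so pairing by number may hold there too. In that comparison the block lost 0 calls and gained 9, and the values reported are without it. Among 67 named members no change reversed. Of the 44, 24, 36 and 22 calls among them, 42, 14, 30 and 16 were kept under all alternatives. Column totals alone put the median log2 change of all genes with induction at 0.111, against -0.017 with TMM factors. At this depth changes of members under 1 CPM rest on few reads, and the cause of the lost calls was not tested.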
